A study of Hordeum vulgare with 22 samples.

Results

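The step from Waddington stage W2.0 to W3.5 was followed in inflorescences of mnd1.a, a barley (Hordeum vulgare) line that carries the mnd1.a mutation of MANY NODED DWARF1 (MND1) in the Bowman background. The 6 libraries of this step, 3 at W3.5 and 3 at W2.0, are 6 of the 22 samples of the series, and were chosen by line and stage alone. All 24318 genes of the table were considered and 21132 passed the filter on low counts. Set beside them are 4 libraries of mnd1.a at W5.0, the awn primordium stage, and 4 and 3 libraries of Bowman, the near-isogenic wild-type cultivar, at W3.5 and W2.0. Each sample is inflorescence tissue dissected together with its base and the small leaves beneath it, harvested in the middle of the light period from plants grown in long days. The labels describe mnd1.a as 1 near-isogenic line, so an effect of MND1 and of any other segment that differs from Bowman cannot be told apart. Whether libraries of a group came from separate plants or pools is not stated in the labels. The p-values set each change against the spread between libraries within groups, estimated from all 21 libraries with counts.

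The Waddington scale orders cereal apices by their appearance. At W2.0 the apex shows double ridges, each a suppressed leaf ridge beneath a spikelet ridge, and by W3.5 the first spikelets form floral organ primordia. MND1 encodes an acyl-CoA N-acyltransferase-like protein, and mutants produce leaves at a faster pace. MADS-box factors of the SEPALLATA, B and C classes mark floral organ formation, and genes for lignin, wax and wall loosening mark differentiating leaf and stem tissue.

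The targeted gene, HORVU7Hr1G113480 (7H, 637080378 to 637082097), was read at 4.55, 4.13 and 3.48 CPM at W3.5, against 5.22, 6.71 and 4.80 CPM at W2.0. In Bowman it ranged from 14.4 to 30.6 CPM at W3.5 and from 10.5 to 20.97 CPM at W2.0. The difference between the lines passed the test at W3.5 (mnd1.a over Bowman, log2 fold change -2.38 ± 0.38, adjusted p = 0.00141) and not at W2.0 (-1.40 ± 0.38, adjusted p = 0.114), and all mnd1.a libraries lay below all Bowman libraries at both stages. Here CPM are the authors' estimated counts scaled to a common library size after TMM normalization. Adjusted p-values are from the edgeR quasi-likelihood test with Benjamini-Hochberg adjustment over all genes tested. Values after ± on the log2 scale are standard errors worked back from that test, as the absolute log2 change over the square root of its F statistic. They are unstable where the change is close to none. Within mnd1.a the gene did not pass the test on this step (log2 fold change -0.46 ± 0.41, adjusted p = 0.574).

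The libraries held 14552004, 13062164 and 16053988 counts at W3.5, and 12552287, 13218610 and 16851574 counts at W2.0. The gap between replicate libraries was uneven at W3.5: replicate 3 gave a chi-square per degree of freedom of 16.4 and 17.8 against replicates 1 and 2, which gave 3.15 against each other. The 3 pairs at W2.0 gave 4.52 to 6.50. No pair agreed within sampling noise, so all were kept as separate replicates. The library code prefix changes with the step: all W3.5 libraries of both lines carry 1327, and all W2.0 libraries of both lines and all mnd1.a libraries at W5.0 carry 1328. Prefix and stage therefore cannot be told apart on this step. A list named ribosomal-RNA-like here was taken as a sign of library make-up. Its tested transcripts are annotated as senescence-associated protein, rRNA intron-encoded homing endonuclease or a cDNA clone similar to the latter. Whether their reads are ribosomal RNA was not tested. Their summed level followed the prefix. It was 14400, 12750 and 15880 CPM at W2.0, 2420, 2207 and 3257 CPM at W3.5, and 27160, 23600, 25290 and 24020 CPM at W5.0. Of 83 such transcripts tested, 64 were called lower at W3.5 and 0 higher, with a median log2 fold change of -2.54.

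Transcripts of a list named organelle-encoded here were matched by annotation words, not by position in an organelle genome. They had summed levels of 61.6, 59.8 and 62.3 CPM at W2.0, 46.1, 52.9 and 45.5 CPM at W3.5 and 107, 93.0, 91.3 and 83.9 CPM at W5.0. Of 26 tested, 5 fell (19.2%, beside 2.19% over all genes). Among them is cytochrome c oxidase subunit 1 (HORVU7Hr1G020010, placed on 7H), at 2.42, 3.10 and 2.26 CPM at W3.5, against 8.37, 6.94 and 7.84 CPM at W2.0 (log2 fold change -1.58 ± 0.21, adjusted p = 0.000149). The 5 largest falls in mean CPM are 4 transcripts annotated as senescence-associated protein or rRNA intron-encoded homing endonuclease and 1 annotated as Cytochrome P450 likeTBP. The homing endonuclease HORVU5Hr1G016040 had 291, 296.4 and 429 CPM at W3.5, against 1468, 1178 and 1498 CPM at W2.0 (log2 fold change -2.03 ± 0.23, adjusted p = 1.45e-05), and 2561, 2122, 2276 and 2235 CPM at W5.0. Cytochrome P450 likeTBP HORVU5Hr1G015600 had 149, 136 and 199 CPM at W3.5, against 902, 691 and 975 CPM at W2.0, and 1617, 1268, 1478 and 1218 CPM at W5.0. All these transcripts were low in the libraries with prefix 1327 and high in those with 1328.

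**Figure D1:**
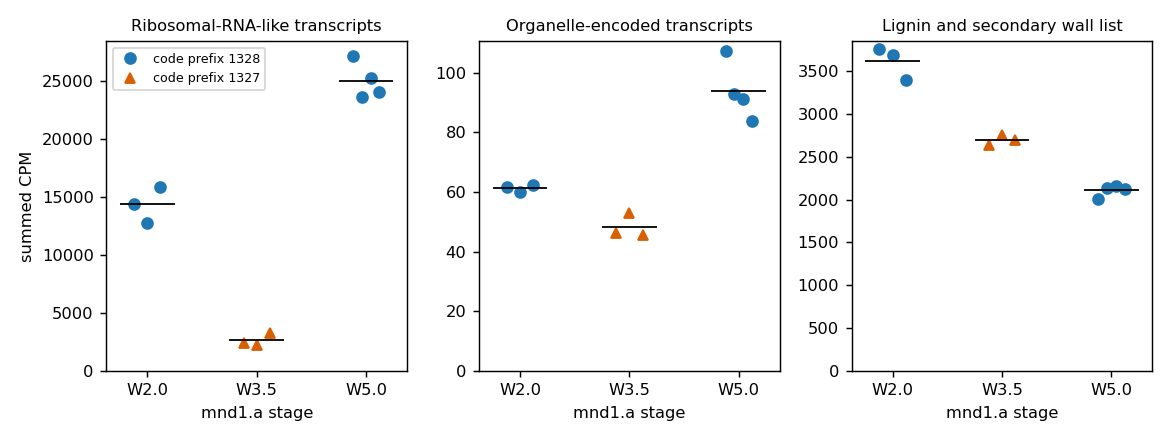
Summed CPM of ribosomal-RNA-like, organelle-encoded, and lignin and secondary wall transcripts in each mnd1.a library by stage; points are libraries, lines are means, and shape and colour give the library code prefix. The ribosomal-RNA-like sum lies between 2207 and 3257 CPM at W3.5 and at 12750 CPM or more in every library with prefix 1328, while the lignin and secondary wall sum is lower at each later stage.

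Markers of other tissues were read in the same libraries. Summed photosynthesis transcripts, which mark green leaf, reached 1754, 1859 and 2541 CPM at W3.5 and 1565, 1249 and 2065 CPM at W2.0, with the highest value in replicate 3 of each stage. Vascular markers summed to 319, 223 and 180.5 CPM at W3.5 and 269, 456 and 456 CPM at W2.0, and the groups overlapped. Root markers, of which 3 were tested, summed to 26.03, 28.2 and 33.4 CPM at W3.5 and 42.2, 47.97 and 44.8 CPM at W2.0, all lower at W3.5 as a sum, and none of the 3 genes passed the test. None of the 83 photosynthesis genes and none of the 23 vascular genes passed it either. For the tissue label, 25 knotted-type and WUSCHEL-type homeobox genes of the meristem were read, none of them called. They summed to 431, 401 and 512 CPM at W3.5 and 458, 431 and 436 CPM at W2.0. The ALOG genes summed to 405, 391 and 289 CPM at W3.5 and 523, 471.5 and 385 CPM at W2.0. MADS-box genes summed to 742, 738 and 795 CPM at W3.5 and 647.5, 705 and 772 CPM at W2.0. Floral members of that family were low and are given below. Whether these lists tell an inflorescence from another apex was not tested. The part of leaf, vascular and root tissue in the changes described here was not tested. In bulk tissue, fewer cells of a type and less RNA per cell cannot be told apart.

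Of 21132 genes tested, 336 were called higher at W3.5 (1.59%) and 463 lower (2.19%) at an adjusted p under 0.05. The rises were small, with a median log2 fold change of 0.56 over the genes called higher, and the falls were large, with a median of -2.03 over the genes called lower. A change of at least 2-fold was reached by 59 of the genes called higher and by 330 of those called lower. All 336 genes called higher and 460 of the 463 called lower had stages whose libraries did not overlap, beside 14.6% and 16.3% of all genes tested. Called genes given library by library below did not overlap between the stages, which was a condition of naming most of them. Ribosomal-RNA-like transcripts and the Cytochrome P450 likeTBP pair made up 66 of the 463 falls. The called count was 1165 higher and 1521 lower when only the mnd1.a groups entered the fit (5.85% and 7.63% of 19924 genes). In 6 further fits, each without 1 of the 6 libraries and here called leave-outs, 266 to 632 genes were called in all. The highest count came without W3.5 replicate 3, with 244 higher and 388 lower, and the lowest without W2.0 replicate 1, with 76 higher and 190 lower. With line, stage and prefix as additive terms, a fit in which both lines share the stage effect, 0 genes were called higher and 8 lower. The prefix term of that fit rests on W5.0, the only stage where Bowman (1327) and mnd1.a (1328) differ in prefix. It cannot be told apart from a line difference particular to that stage. The 8 lower calls include a GDSL esterase/lipase of the cuticle list, a hydroxycinnamoyl transferase, a bHLH factor and a thaumatin-type protein, each also called lower on the step. They also include a beta-fructofuranosidase, HORVU2Hr1G109120, and an amino acid transporter, HORVU3Hr1G045630, which were not called on the step (adjusted p = 0.808 and 0.702).

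**Figure D2:**
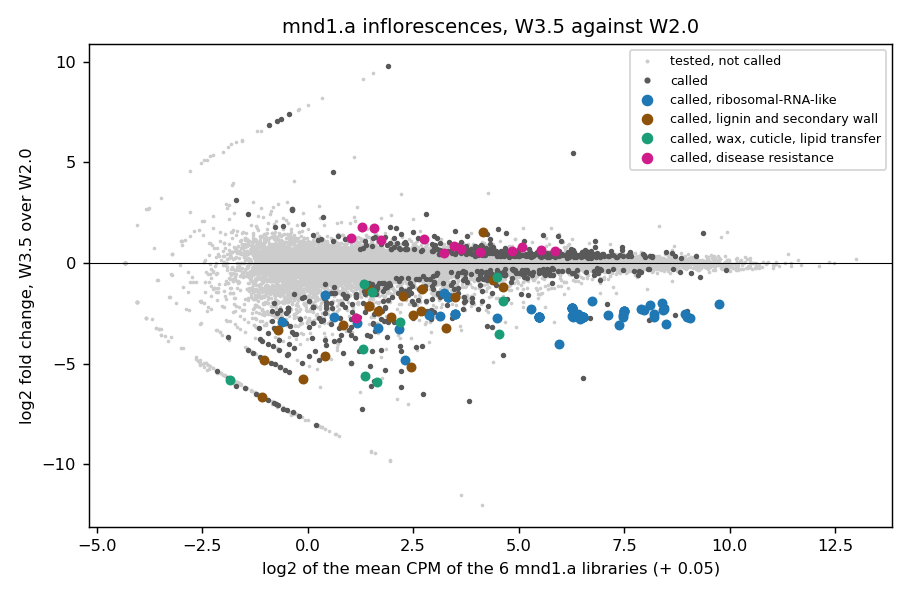
Log2 fold change of W3.5 over W2.0 in mnd1.a (y axis) against the log2 of the mean CPM of the 6 libraries (x axis) for every gene tested; grey points did not pass the test, dark and coloured points did. The diagonal bands at the upper and lower left are genes without counts at 1 stage, whose fitted change is no measure of size. The 336 genes called higher lie mostly close to 0, with a median of 0.56, and the 463 genes called lower have a median of -2.03.

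Gene lists were made by word patterns on the annotations. Of 56 lists with members tested, 17 held lower calls and no higher call, 6 held higher calls and no lower call, 13 held both, and 20 held none. The median over all genes tested was 0.00 on the log2 scale. Counts of calls in the lists are set against the 1.59% called higher and 2.19% called lower over all genes. Medians below -0.5 were found for the lignin and secondary wall list, the wax, cuticle and lipid-transfer list and aquaporins, beside the ribosomal-RNA-like and organelle-encoded lists.

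**Figure D3:**
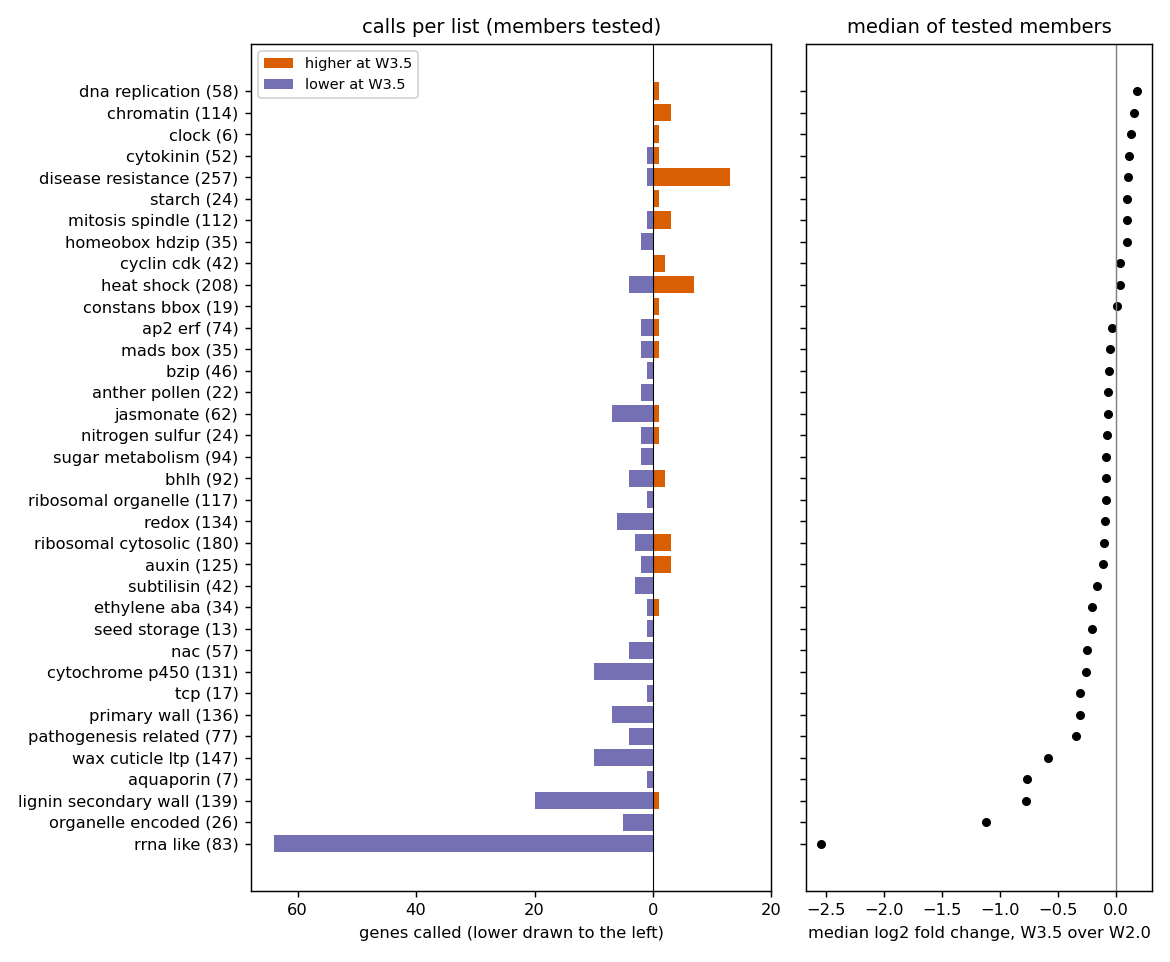
Number of genes called higher (right) and lower (left) at W3.5 in each list with at least 1 call, and the median log2 fold change of the tested members; the number tested stands after each name. Outside the ribosomal-RNA-like transcripts, lignin and secondary wall genes hold the largest number of falls, 20, and disease resistance genes the largest number of rises, 13.

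Genes of lignin synthesis and the secondary wall gave more falls than rises. Of 139 tested, 20 fell and 1 rose, beside 2.19% and 1.59% over all genes, and the median log2 fold change was -0.78. The falls were 54 when only mnd1.a groups were fitted, and 3 to 13 when 1 library was left out. The 20 falls are 7 laccases and 7 peroxidases, enzymes that polymerise lignin, 3 hydroxycinnamoyl transferases and 1 phenylalanine ammonia-lyase of monolignol synthesis, and 2 COBRA-like proteins of cellulose deposition. Laccase 17 HORVU3Hr1G086200 had 0.356, 1.03 and 1.71 CPM at W3.5, against 7.46, 5.38 and 7.36 CPM at W2.0 (log2 fold change -2.68 ± 0.54, adjusted p = 0.00965), and its call was lost in 1 leave-out, without W3.5 replicate 1 (adjusted p = 0.0575). Peroxidase HORVU7Hr1G083550 had 1.35, 3.18 and 1.16 CPM at W3.5, against 24.3, 14.0 and 14.4 CPM at W2.0 (log2 fold change -3.23 ± 0.76, adjusted p = 0.0254). Every W3.5 library lay below every W2.0 library in both genes, which was a condition of naming them. The peroxidase lost its call in 5 of the 6 leave-outs.

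Another peroxidase of that list, HORVU7Hr1G011840, had 0.142, 0.398 and 0.305 CPM at W3.5, against 27.1, 2.73 and 1.76 CPM at W2.0 (log2 fold change -5.18 ± 1.11, adjusted p = 0.0219). Its W2.0 mean rests on replicate 1, and the call was lost without that library, in 3 other leave-outs, in limma-voom and with only mnd1.a groups in the fit. A hydroxycinnamoyl transferase of the shikimate/quinate type, HORVU2Hr1G086380, had 3.56, 3.98 and 3.66 CPM at W3.5, against 9.11, 8.81 and 9.61 CPM at W2.0 (log2 fold change -1.30 ± 0.15, adjusted p = 2.02e-05). This gene, named after its values were seen, is among the 8 called with prefix as a term, a fit that does not isolate the prefix. The peroxidase that rose, HORVU3Hr1G112040, had 24.3, 22.0 and 32.5 CPM at W3.5, against 8.12, 10.1 and 9.49 CPM at W2.0 (log2 fold change 1.51 ± 0.23, adjusted p = 0.000653). At W5.0 it had 8.08, 6.25, 13.9 and 8.38 CPM, and its call held in all 6 leave-outs.

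Surface lipid genes gave falls and no rise. Among genes for wax, cuticle and lipid-transfer proteins, 120 of those tested had a negative and 27 a positive log2 change, beside 10576 and 10535 over all genes. Of them 10 fell (6.80%, beside 2.19%) and 0 rose (beside 1.59%), with a median log2 fold change of -0.58. The falls numbered 46 with only mnd1.a groups in the fit and 3 to 8 with 1 library left out. Non-specific lipid-transfer protein 3 (HORVU5Hr1G046520), of a family of small secreted proteins that bind lipids at the epidermis, had 3.77, 2.86 and 4.33 CPM at W3.5, against 47.2, 35.4 and 45.1 CPM at W2.0 (log2 fold change -3.53 ± 0.61, adjusted p = 0.00374). Lipid-transfer protein 4.2 HORVU3Hr1G009520 had 0.284, 0 and 0 CPM at W3.5, against 8.20, 5.38 and 4.62 CPM at W2.0 (log2 fold change -5.90 ± 1.15, adjusted p = 0.00851). Both calls held in all 6 leave-outs, and limma-voom did not call the 4.2 gene. A nearby copy annotated with the same name, HORVU3Hr1G009490, had 0.427, 0.557 and 2.01 CPM at W3.5, against 9.28, 7.57 and 7.12 CPM at W2.0 (log2 fold change -2.94 ± 0.81, adjusted p = 0.0499), and lost its call in 5 leave-outs and with size factors in place of TMM. The other called members are a lipid-transfer protein 4.1, 4 GDSL esterase/lipases and 2 ketoacyl-CoA synthases of fatty acid elongation.

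Genes of the growing primary wall fell in 7 of 136 cases and rose in 0, beside 2.19% and 1.59% over all genes, with a median log2 fold change of -0.31. The falls numbered 28 with only mnd1.a groups in the fit and 1 to 5 with 1 library left out. Expansin B4 (HORVU6Hr1G063180), a wall-loosening protein, had 0.142, 0.557 and 1.34 CPM at W3.5, against 14.4, 12.2 and 10.3 CPM at W2.0 (log2 fold change -4.12 ± 0.56, adjusted p = 0.000159), and the call held in all 6 leave-outs. Expansin A1 (HORVU1Hr1G069830) had 5.05, 7.63 and 5.55 CPM at W3.5, against 26.4, 16.1 and 16.5 CPM at W2.0 (log2 fold change -1.70 ± 0.46, adjusted p = 0.0495). A cellulose synthase family gene, HORVU5Hr1G064230, had 2.85, 3.10 and 5.13 CPM at W3.5, against 17.1, 12.7 and 18.3 CPM at W2.0 (log2 fold change -2.11 ± 0.55, adjusted p = 0.0398). The expansin A1 and cellulose synthase calls were lost in every leave-out. Among 42 subtilisin-like proteases 3 fell, the most abundant being HORVU6Hr1G081730 with 10.4, 10.2 and 7.75 CPM at W3.5, against 16.9, 19.0 and 17.9 CPM at W2.0 (log2 fold change -0.93 ± 0.21, adjusted p = 0.0166). Its call was lost in 3 leave-outs.

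Of 94 genes of sugar metabolism 2 fell (2.13%) and 0 rose, a share of falls near the 2.19% over all genes. The cell wall invertase beta-fructofuranosidase 1 (HORVU4Hr1G086300), which splits sucrose outside the cell, had 2.77, 2.62 and 1.53 CPM at W3.5, against 16.1, 9.75 and 9.91 CPM at W2.0 (log2 fold change -2.37 ± 0.43, adjusted p = 0.00404). A trehalose-6-phosphate phosphatase (HORVU6Hr1G063310), of the enzyme family that ends trehalose synthesis, had 3.27, 2.70 and 1.40 CPM at W3.5, against 17.9, 13.7 and 8.27 CPM at W2.0 (log2 fold change -2.44 ± 0.63, adjusted p = 0.0387). The invertase call held in all 6 leave-outs, and the phosphatase call was lost in every one. Of 24 genes of nitrogen and sulfur metabolism 2 fell and 1 rose, beside 2.19% and 1.59% over all genes. Glutamine synthetase 1 (HORVU6Hr1G074030), which assimilates ammonium, had 12.2, 8.91 and 7.69 CPM at W3.5, against 33.2, 20.3 and 22.1 CPM at W2.0 (log2 fold change -1.39 ± 0.26, adjusted p = 0.00546). Asparagine synthetase (HORVU5Hr1G048100), which forms the transport amide asparagine, had 39.04, 74.4 and 48.8 CPM at W3.5, against 84.8, 256 and 318 CPM at W2.0 (log2 fold change -2.03 ± 0.54, adjusted p = 0.0462). The W2.0 libraries of asparagine synthetase spread widely, and neither limma-voom nor 5 of the leave-outs called it.

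**Figure D4:**
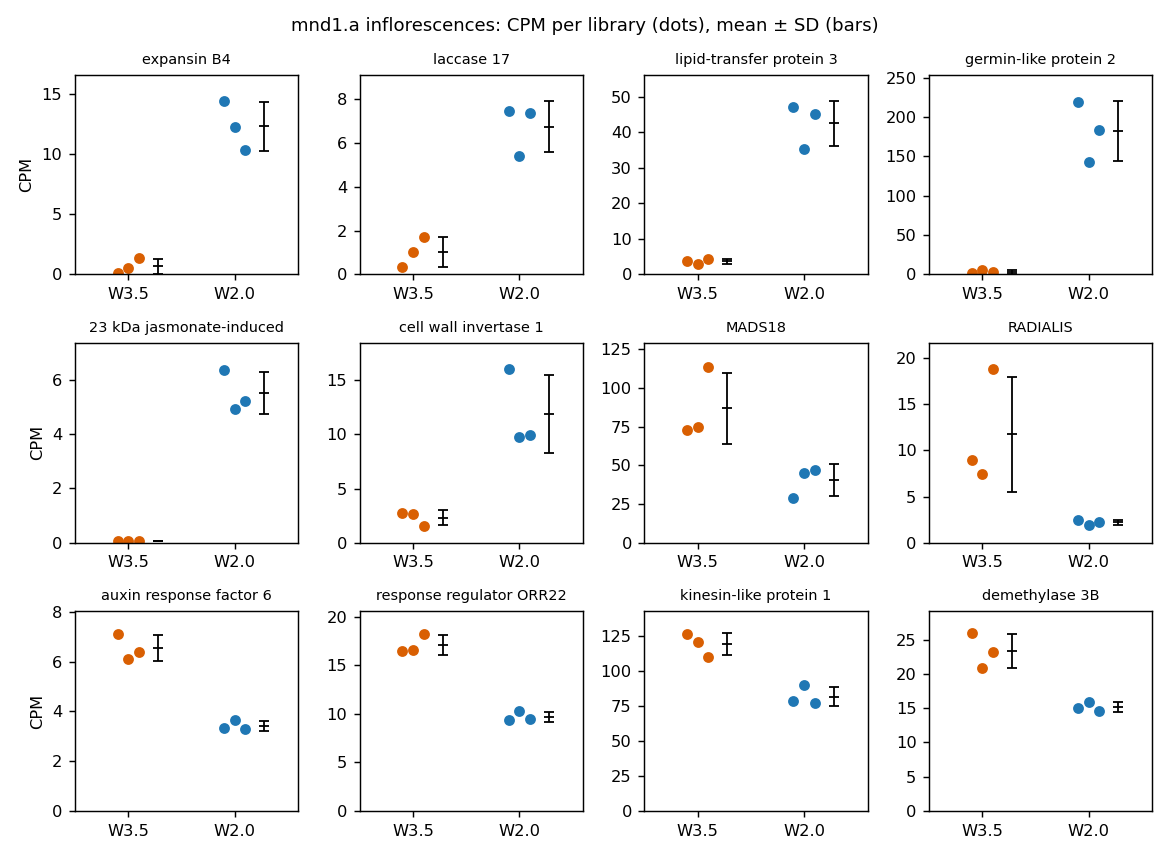
CPM of 12 genes in each mnd1.a library at W3.5 (left) and W2.0 (right); points are libraries and bars are the mean ± SD of 3. The 6 genes of the first 6 panels were called lower at W3.5 and the others higher. In none of the 12 do the stages overlap, which was a condition of naming them.

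Jasmonate genes moved both ways. Of 62 tested, 7 fell (11.3%, beside 2.19% over all genes) and 1 rose (1.61%, near the 1.59% over all genes), with a median log2 fold change of -0.07. The summed level of the list went up, unlike most of its calls. It was 9904, 11910 and 8068 CPM at W3.5, against 6297, 6975 and 7087 CPM at W2.0. The falls include 5 transcripts annotated as 23 kDa jasmonate-induced protein that lie close together on 3H. HORVU3Hr1G117610 (3H, 698809349 to 698810265) had 0.0711, 0.0795 and 0.0610 CPM at W3.5, against 6.38, 4.91 and 5.23 CPM at W2.0 (adjusted p = 1.81e-06). Its 3 counts at W3.5 against 226 at W2.0 put it 78.4-fold lower, with a 95% exact interval of 26.5 to 383 that covers counting error only. HORVU3Hr1G117570 (3H, 698730433 to 698732077) had 0.0711, 0.318 and 0 CPM at W3.5, against 10.9, 7.80 and 8.45 CPM at W2.0 (log2 fold change -6.17 ± 0.82, adjusted p = 0.000167). These 5 share an annotation and a locus and are not independent counts. 12-oxophytodienoate reductase 2 (HORVU2Hr1G004230), of the family that acts in jasmonate synthesis, had 0, 0.398 and 0.122 CPM at W3.5, against 9.11, 6.16 and 5.41 CPM at W2.0 (log2 fold change -5.32 ± 0.94, adjusted p = 0.00629). All 3 of these calls held in every leave-out, and the reductase was not called in limma-voom.

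The gene that rose is a putative jasmonate-induced protein, HORVU2Hr1G013950, with 1004, 1335 and 587 CPM at W3.5, against 241, 399 and 390.1 CPM at W2.0 (log2 fold change 1.51 ± 0.40, adjusted p = 0.0446). Replicate 3 was the lowest of the W3.5 libraries, the stages did not overlap, and the level at W5.0 was 135, 112, 95.6 and 74.9 CPM. The call was lost in 5 leave-outs (adjusted p up to 0.174) and kept without W3.5 replicate 3.

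The redox and germin list and the pathogenesis-related list held falls and no rise. Of 134 redox and germin genes 6 fell and 0 rose, beside 2.19% and 1.59% over all genes, and with 1 library left out 0 to 2 fell. Of the 6, 5 are germin-like proteins, secreted proteins of the cupin fold. Germin-like protein 2 (HORVU7Hr1G091800) had 1.28, 6.04 and 3.23 CPM at W3.5, against 219, 143 and 184 CPM at W2.0 (log2 fold change -5.71 ± 1.26, adjusted p = 0.0204), and 0.0824, 0.154, 0.303 and 0.0821 CPM at W5.0. Its call was lost in 4 leave-outs. Germin-like protein 10 HORVU3Hr1G107870 had 0, 0 and 0.244 CPM at W3.5, against 8.45, 4.06 and 4.80 CPM at W2.0 (log2 fold change -5.86 ± 1.53, adjusted p = 0.048), and its call was lost in every leave-out and in DESeq2. Another transcript of that name, HORVU3Hr1G034100, had 0.853, 0.875 and 1.89 CPM at W3.5, against 5.47, 6.94 and 4.99 CPM at W2.0 (log2 fold change -2.23 ± 0.58, adjusted p = 0.0368), and lost its call in 5 leave-outs (adjusted p up to 0.15). Of 77 pathogenesis-related genes 4 fell and 0 rose, beside the same shares, with a median log2 fold change of -0.34, and 1 to 2 fell with 1 library left out. A thaumatin-type member, HORVU5Hr1G005180, named after its values were seen, had 0, 0 and 0.0610 CPM at W3.5, against 7.21, 1.95 and 5.11 CPM at W2.0 (adjusted p = 0.00357). With 1 count at W3.5 against 196 at W2.0 it was 204-fold lower, with an interval of 36.2 to 8096.

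Other large falls were single genes. Meiosis 5 (HORVU7Hr1G088880, so annotated) had 0.0711, 0 and 0.305 CPM at W3.5, against 18.2, 3.74 and 17.6 CPM at W2.0 (log2 fold change -6.50 ± 0.90, adjusted p = 0.000786), and 0, 0, 0 and 0 CPM at W5.0. A plant basic secretory protein, HORVU1Hr1G043910, had 0.0711, 0.159 and 0.366 CPM at W3.5, against 14.9, 8.42 and 3.71 CPM at W2.0 (log2 fold change -5.37 ± 0.93, adjusted p = 0.00374). Both calls held in all 6 leave-outs and were lost in limma-voom. O-methyltransferase 1 (HORVU1Hr1G011930) had 0.0711, 0.318 and 0.305 CPM at W3.5, against 83.1, 0.468 and 0.426 CPM at W2.0 (log2 fold change -6.86 ± 1.66, adjusted p = 0.0309). That fall rests on replicate 1 at W2.0, and every other library of both stages was below 0.5 CPM. It was not called without that library, in the 3 leave-outs of a W3.5 library, or in limma-voom.

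Cytochrome P450 genes, a family of oxidases in hormone, wax and phenolic synthesis, fell in 10 of 131 cases and rose in 0, beside 2.19% and 1.59% over all genes, and 5 to 7 fell with 1 library left out. Of the 10, 2 are the likeTBP transcripts described with the ribosomal-RNA-like ones. HORVU2Hr1G072400 had 0.356, 0.398 and 1.04 CPM at W3.5, against 14.0, 8.58 and 11.1 CPM at W2.0 (log2 fold change -4.17 ± 1.02, adjusted p = 0.0307), and its call was lost in every leave-out. A late embryogenesis abundant protein of group 2, HORVU7Hr1G026000, had 2.63, 3.10 and 4.46 CPM at W3.5, against 6.88, 7.96 and 8.09 CPM at W2.0 (log2 fold change -1.16 ± 0.31, adjusted p = 0.0425), the 1 call among 13 seed-type genes, and lost it in 5 leave-outs. The 2 falls among 22 anther and pollen genes (9.09%, beside 2.19% over all genes) are both chalcone synthases, the entry enzyme of flavonoid synthesis.

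Among transcription factors, NAC genes fell in 4 of 57 cases and rose in 0, beside 2.19% and 1.59% over all genes, with a median log2 fold change of -0.25. With 1 library left out 0 to 2 fell. The NAC domain gene HORVU5Hr1G045650 had 0.427, 0.318 and 0.488 CPM at W3.5, against 6.38, 9.52 and 10.3 CPM at W2.0 (log2 fold change -4.37 ± 1.05, adjusted p = 0.0281), and was read at 5.03, 2.47, 5.30 and 3.37 CPM at W5.0. An HD-Zip homeobox gene, HORVU4Hr1G070610, had 2.06, 1.03 and 2.50 CPM at W3.5, against 11.5, 13.3 and 14.5 CPM at W2.0 (log2 fold change -2.79 ± 0.59, adjusted p = 0.0144). Of 92 bHLH factors 4 fell and 2 rose (4.35% and 2.17%, beside 2.19% and 1.59% over all genes). Each count was 0 to 2 with 1 library left out. bHLH63 (HORVU6Hr1G068980) had 0.996, 1.35 and 0.305 CPM at W3.5, against 8.70, 5.07 and 5.90 CPM at W2.0 (log2 fold change -2.91 ± 0.74, adjusted p = 0.0362), and a further bHLH gene, HORVU5Hr1G002090, had 2.21, 3.58 and 1.16 CPM at W3.5, against 6.96, 5.85 and 6.33 CPM at W2.0 (log2 fold change -1.48 ± 0.32, adjusted p = 0.0154). The NAC and bHLH63 calls were lost in every leave-out (adjusted p up to 0.11 and 0.127), the HORVU5Hr1G002090 call in 3 and the HD-Zip call in 2.

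TEOSINTE BRANCHED 1 (HORVU4Hr1G007040), the TCP factor known from maize for holding back axillary buds, had 3.48, 1.51 and 2.99 CPM at W3.5, against 7.71, 6.94 and 4.99 CPM at W2.0 (log2 fold change -1.28 ± 0.34, adjusted p = 0.0405). It was the 1 call among 17 TCP genes, whose median was -0.31, and it was not called in any leave-out or in limma-voom. At W5.0 it had 9.89, 7.87, 8.17 and 7.47 CPM. Abscisic acid receptor PYR1 (HORVU1Hr1G050110) had 15.3, 12.2 and 11.5 CPM at W3.5, against 23.1, 24.1 and 21.3 CPM at W2.0 (log2 fold change -0.81 ± 0.20, adjusted p = 0.0254). Its call was lost in 5 leave-outs.

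Among genes that rose, a MACPF domain protein (HORVU7Hr1G087270), of the family of membrane-attack pore proteins, had 4.69, 8.27 and 9.21 CPM at W3.5, against 0, 0 and 0 CPM at W2.0 (adjusted p = 0.01). With the empty W2.0 group set at 3 counts in all, it was at least 103-fold higher. At W5.0 it had 0.742, 0.0772, 3.03 and 1.23 CPM, and limma-voom did not call the step. A transcript annotated as 60S ribosomal protein L14-1 (HORVU2Hr1G089090) had 144, 208 and 106 CPM at W3.5, against 0.663, 7.72 and 2.13 CPM at W2.0 (log2 fold change 5.46 ± 0.95, adjusted p = 0.00419), and 1.15, 2.39, 0.530 and 2.30 CPM at W5.0. It was thus high in the libraries with prefix 1327 and low in those with 1328. Of 180 genes in the cytosolic ribosomal protein list 3 rose and 3 fell (1.67% each), beside 1.59% and 2.19% over all genes. The median of the list was -0.11, and 1 of the 3 falls is annotated as mitochondrial ribosomal protein S4. Zinc transporter 7 (HORVU1Hr1G028920) had 16.57, 14.8 and 19.2 CPM at W3.5, against 5.88, 6.47 and 4.5 CPM at W2.0 (log2 fold change 1.59 ± 0.28, adjusted p = 0.00358), and 7.17, 8.96, 6.66 and 6.65 CPM at W5.0.

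Among regulators that rose, the MYB-type factor RADIALIS, known from snapdragon for its part in floral asymmetry, was called for a pair of copies on 7H. HORVU7Hr1G047910 (7H, 162420341 to 162421610) had 8.96, 7.39 and 18.9 CPM at W3.5, against 2.48, 1.95 and 2.19 CPM at W2.0 (log2 fold change 2.41 ± 0.48, adjusted p = 0.00922), and HORVU7Hr1G047820 (7H, 161733607 to 161736015) had 7.25, 6.84 and 10.9 CPM at W3.5, against 3.31, 3.35 and 2.07 CPM at W2.0 (log2 fold change 1.53 ± 0.39, adjusted p = 0.0346). Replicate 3 was the highest W3.5 library of both. The first call held in all 6 leave-outs, and the other was lost in every one. bHLH25 (HORVU0Hr1G014300) had 32.6, 44.9 and 26.9 CPM at W3.5, against 9.20, 11.8 and 11.3 CPM at W2.0 (log2 fold change 1.69 ± 0.36, adjusted p = 0.0151), and lost its call in 3 leave-outs. Zinc-finger protein 1 (HORVU2Hr1G077570) had 4.55, 3.98 and 9.34 CPM at W3.5, against 1.08, 1.79 and 2.19 CPM at W2.0 (log2 fold change 1.80 ± 0.38, adjusted p = 0.0127), was at 7.58, 9.03, 7.27 and 6.16 CPM at W5.0, and lost its call in 2 leave-outs. Anthocyanidin reductase (HORVU2Hr1G108260), an enzyme of proanthocyanidin synthesis, had 4.55, 4.85 and 9.95 CPM at W3.5, against 0.994, 2.34 and 2.493 CPM at W2.0 (log2 fold change 1.72 ± 0.42, adjusted p = 0.0283), and lost its call in 4.

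Flowering-time genes gave few calls. PPD-H1 (HORVU2Hr1G013400, 2H, 29123785 to 29127889), the pseudo-response regulator of the barley long-day response, had 133, 124 and 133 CPM at W3.5, against 94.2, 98.6 and 93.8 CPM at W2.0 (log2 fold change 0.44 ± 0.12, adjusted p = 0.0451). It was the 1 call among 6 clock genes, lay close to the threshold and was lost in every leave-out (adjusted p up to 0.141). CONSTANS-LIKE 16 (HORVU4Hr1G007420), a B-box zinc-finger protein, had 10.8, 11.7 and 12.7 CPM at W3.5, against 5.72, 4.13 and 7.66 CPM at W2.0 (log2 fold change 1.00 ± 0.27, adjusted p = 0.0423). It was the 1 call among 19 CONSTANS and B-box genes, and was lost in 5 leave-outs and in limma-voom. TERMINAL FLOWER 1 (HORVU4Hr1G078770), a repressor of the floral transition, had 1.21, 1.91 and 3.72 CPM at W3.5, against 4.64, 8.42 and 4.13 CPM at W2.0, levels that did not overlap and did not pass the test (log2 fold change -1.30 ± 0.51, adjusted p = 0.155). A more abundant gene of the same annotation, HORVU2Hr1G072750, had 98.56, 93.19 and 75.85 CPM at W3.5, against 78.79, 94.22 and 68.54 CPM at W2.0. Its levels overlapped and did not pass the test (log2 fold change 0.148 ± 0.514, adjusted p = 0.908). No member of the SPL family of phase-change regulators (23 tested, median 0.24) was called, and none of the growth-regulating factors (17 tested) or the ALOG genes (9 tested, median -0.38).

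Hormone response factors changed by small amounts. Auxin response factor 6 (HORVU3Hr1G022060) had 7.11, 6.12 and 6.41 CPM at W3.5, against 3.31, 3.67 and 3.28 CPM at W2.0 (log2 fold change 0.94 ± 0.17, adjusted p = 0.00438), and its call held in all 6 leave-outs. Auxin response factor 8 (HORVU0Hr1G027410) had 12.7, 14.5 and 17.6 CPM at W3.5, against 9.53, 9.52 and 10.2 CPM at W2.0 (log2 fold change 0.62 ± 0.14, adjusted p = 0.0184). Auxin response factor 15 (HORVU1Hr1G087460) moved the other way, with 129, 112 and 112 CPM at W3.5, against 159, 162 and 152 CPM at W2.0 (log2 fold change -0.42 ± 0.09, adjusted p = 0.00965). Over 125 auxin genes 3 rose and 2 fell (2.4% and 1.6%), near the 1.59% and 2.19% over all genes. The type-B response regulator ORR22 (HORVU2Hr1G095530), which acts in cytokinin signalling, had 16.4, 16.5 and 18.2 CPM at W3.5, against 9.36, 10.3 and 9.43 CPM at W2.0 (log2 fold change 0.82 ± 0.17, adjusted p = 0.0141). Ethylene-responsive factor 5 (HORVU7Hr1G070230) had 27.2, 26.5 and 24.8 CPM at W3.5, against 20.7, 22.1 and 19.6 CPM at W2.0 (log2 fold change 0.33 ± 0.08, adjusted p = 0.0268), a change that 4 of the 6 leave-outs did not call. The calls of auxin response factors 8 and 15 and ORR22 were lost in 4, 1 and 2 leave-outs. Of 52 cytokinin genes 1 rose and 1, a cytokinin oxidase/dehydrogenase, fell (1.92% each). Of 74 AP2 and ethylene-responsive factor genes 1 rose and 2 fell (1.35% and 2.70%). These shares are near the 1.59% and 2.19% over all genes.

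Genes of cell division and chromatin gave small rises in a few members. Of 112 mitosis and spindle genes 3 rose and 1 fell, of 42 cyclin and kinase genes 2 rose and 0 fell, and of 114 chromatin genes 3 rose and 0 fell, beside 1.59% and 2.19% over all genes. With only mnd1.a groups in the fit, 15 mitosis and 19 chromatin genes were called higher, and 40 of the histone genes lower, and with 1 library left out 1 to 2 chromatin genes and 1 mitosis gene rose. In the fit of all 21 libraries 0 of 177 histone genes were called in either direction, with a median of -0.13. Kinesin-like protein 1 HORVU0Hr1G015810 had 126, 121 and 110.0 CPM at W3.5, against 78.5, 89.5 and 76.6 CPM at W2.0 (log2 fold change 0.54 ± 0.09, adjusted p = 0.00177), while a transcript of the same name, HORVU7Hr1G088620, had 5.33, 4.61 and 9.28 CPM at W3.5, against 13.6, 19.4 and 13.9 CPM at W2.0 (log2 fold change -1.28 ± 0.32, adjusted p = 0.0305). Lysine-specific demethylase 3B (HORVU7Hr1G094830), a histone demethylase, had 25.96, 20.9 and 23.2 CPM at W3.5, against 15.0, 15.9 and 14.5 CPM at W2.0 (log2 fold change 0.63 ± 0.11, adjusted p = 0.00274). The first kinesin and the demethylase kept their calls in all 6 leave-outs, and the other kinesin lost its call in 5.

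Further members of these lists changed by less than 2-fold. Cyclin B1 (HORVU6Hr1G022430), which drives entry into mitosis, had 19.98 ± 1.15 CPM at W3.5, against 15.1 ± 1.55 CPM at W2.0 (SD, n = 3 each), with a log2 fold change of 0.40 ± 0.09 and an adjusted p of 0.0223. The histone methyltransferase EZ2 (HORVU3Hr1G007830), a Polycomb subunit, had 28.2, 27.8 and 28.5 CPM at W3.5, against 19.9, 20.7 and 20.9 CPM at W2.0 (log2 fold change 0.46 ± 0.11, adjusted p = 0.0309). Replication protein A subunit B (HORVU5Hr1G044830), which binds single-stranded DNA, had 114, 110.0 and 128 CPM at W3.5, against 72.7, 79.6 and 80.9 CPM at W2.0 (log2 fold change 0.59 ± 0.15, adjusted p = 0.0296). In all 3 the stages did not overlap, a condition of naming them, and the calls were lost in 4 to 6 of the 6 leave-outs.

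Chaperone genes gave calls in both directions. Of 208 heat shock and chaperone genes 7 rose (3.37%, beside 1.59% over all genes) and 4 fell (1.92%, near the 2.19% over all genes). With 1 library left out 2 to 4 rose and 1 to 3 fell. The rises are 6 DnaJ-type co-chaperones and 1 BAG regulator, and the falls are 3 small heat shock proteins and BAG regulator 8. DnaJ 3 HORVU7Hr1G046460 had 78.4, 72.4 and 72.9 CPM at W3.5, against 49.9, 50.7 and 49.4 CPM at W2.0 (log2 fold change 0.58 ± 0.09, adjusted p = 0.000459). BAG regulator 8 (HORVU1Hr1G077190) had 36, 39 and 36 CPM at W3.5, against 51, 53 and 52 CPM at W2.0 (log2 fold change -0.49 ± 0.09, adjusted p = 0.00294). Both calls held in all 6 leave-outs, and the difference between the types was not tested.

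Disease resistance genes, mostly intracellular receptors with a nucleotide-binding site and leucine-rich repeats, rose in 13 of 257 cases and fell in 1. That is beside 1.59% and 2.19% over all genes, and the median of the list was 0.10. The rises numbered 30 with only mnd1.a groups in the fit and 4 to 10 with 1 library left out. The NB-ARC gene HORVU0Hr1G015230 had 38.8, 41.8 and 48.1 CPM at W3.5, against 24.7, 25.7 and 24.8 CPM at W2.0 (log2 fold change 0.78 ± 0.10, adjusted p = 6.65e-05), and its call held in all 6 leave-outs. HORVU7Hr1G002350 had 7.18, 7.63 and 13.4 CPM at W3.5, against 3.48, 3.67 and 5.05 CPM at W2.0 (log2 fold change 1.203 ± 0.26, adjusted p = 0.0149), with the highest value in replicate 3, and lost its call in 3 leave-outs. HORVU6Hr1G095140, of the leucine-rich repeat type, had 11.5, 15.4 and 15.8 CPM at W3.5, against 5.72, 9.36 and 8.45 CPM at W2.0 (log2 fold change 0.86 ± 0.23, adjusted p = 0.041), and its call was lost in every leave-out (adjusted p up to 0.18).

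Some abundant genes rose by less than 2-fold. NAD-dependent malic enzyme 1 (HORVU3Hr1G019790), a mitochondrial decarboxylase, had 405, 481 and 401 CPM at W3.5, against 309, 310.1 and 256 CPM at W2.0 (log2 fold change 0.56 ± 0.10, adjusted p = 0.00382). Callose synthase 1 (HORVU6Hr1G095090) had 659, 610.4 and 709 CPM at W3.5, against 494, 534 and 549.8 CPM at W2.0 (log2 fold change 0.33 ± 0.08, adjusted p = 0.033). Starch synthase 2 (HORVU2Hr1G090980) had 196, 185 and 258 CPM at W3.5, against 142, 116 and 157 CPM at W2.0 (log2 fold change 0.62 ± 0.17, adjusted p = 0.0486). The malic enzyme call held in all 6 leave-outs, the starch synthase call was lost in every one and the callose synthase call in 5. Adenylyl-sulfate kinase 3 (HORVU2Hr1G037890), of sulfate activation, had 16.4, 16.1 and 17.1 CPM at W3.5, against 12.1, 11.3 and 11.7 CPM at W2.0 (log2 fold change 0.50 ± 0.11, adjusted p = 0.0202), and lost its call in 5 leave-outs.

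MADS-box genes of the floral transition and of floral organs gave few calls. Of 35 tested, 1 rose and 2 fell, beside 1.59% and 2.19% over all genes, with a median log2 fold change of -0.05. The gene that rose is MADS18 (HORVU0Hr1G003020), of the FRUITFULL-like group that includes VRN-H1, with 73.0, 74.5 and 113 CPM at W3.5, against 28.8, 45.2 and 47.3 CPM at W2.0 (log2 fold change 1.103 ± 0.21, adjusted p = 0.00781). It was the highest in replicate 3 at W3.5 and was at 144, 138, 134 and 118 CPM at W5.0. VRN-H1 itself (HORVU5Hr1G095630), the vernalization gene that marks the reproductive apex, had 127, 141 and 147.1 CPM at W3.5, against 109, 123.1 and 149.7 CPM at W2.0, overlapping levels that did not pass the test (log2 fold change 0.12 ± 0.19, adjusted p = 0.769). The gene annotated TaAGL1 (HORVU6Hr1G002330) had 8.82, 8.67 and 4.88 CPM at W3.5, against 14.9, 12.1 and 15.69 CPM at W2.0 (log2 fold change -0.94 ± 0.21, adjusted p = 0.0182), and lost its call in 3 leave-outs. The other call is MADS26 (HORVU7Hr1G076310), at 0, 0.159 and 0.0610 CPM at W3.5, against 0.8285, 1.95 and 1.09 CPM at W2.0 (adjusted p = 0.049). Its 3 counts at W3.5 against 53 at W2.0 make it 18.4-fold lower, with an interval of 5.96 to 92.0.

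The SEPALLATA-like, B-class and C-class genes were below 8 CPM in every library of both stages, and none of the 9 grouped below passed the test on this step. MADS5 (HORVU7Hr1G025700, SEPALLATA-like) had 0.284, 0 and 1.83 CPM at W3.5, against 0.0828, 1.48 and 6.51 CPM at W2.0, and 21.3, 23.6, 17.5 and 31.3 CPM at W5.0. MADS1 (HORVU4Hr1G067680, SEPALLATA-like) had 0.142, 0 and 2.69 CPM at W3.5, against 0.0828, 0.780 and 6.57 CPM at W2.0, and 41.7, 48.2, 45.6 and 68.1 CPM at W5.0. MADS16 (HORVU7Hr1G091210, B class) had 0, 0.318 and 1.47 CPM at W3.5, against 0.166, 0.390 and 3.35 CPM at W2.0, and 17.6, 23.01, 18.9 and 27.5 CPM at W5.0. Replicate 3 had the highest value of both stages in all 3 genes, and the stages overlapped. Summed over 9 MADS-box genes (MADS1, 3, 4, 5, 6, 7, 8, 16 and 34, grouped after their values were seen), the level was 1.56, 2.23 and 13.1 CPM at W3.5, against 2.73, 6.55 and 43.4 CPM at W2.0. The W2.0 sum of replicate 3 lay above every W3.5 library. At W5.0 the sum was 182 to 271.5 CPM, and in Bowman it was 34.8 to 219 CPM at W3.5, against 3.30 to 8.19 CPM at W2.0. The group leaves out MADS58 and MADS2. MADS2 (HORVU3Hr1G091000) had 1.07, 0.636 and 0.610 CPM at W3.5, against 1.16, 1.40 and 2.68 CPM at W2.0, levels that did not overlap. It did not pass the test (log2 fold change -1.20 ± 0.49, adjusted p = 0.175). With only mnd1.a groups in the edgeR fit its adjusted p was 0.0358.

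MADS6 (HORVU6Hr1G066140, of the AGL6 group) had 0, 0 and 0 CPM at W3.5, against 0, 0.390 and 3.89 CPM at W2.0, with no count in any W3.5 library, and the stages shared the level of 0. MADS34 (HORVU5Hr1G095710), which acts at the start of spikelet formation, had 0.356, 0.795 and 1.47 CPM at W3.5, against 0.331, 0.780 and 6.93 CPM at W2.0, overlapping levels. Neither passed the test (adjusted p = 0.152 for MADS6 and 0.282 for MADS34). VRS1 (HORVU2Hr1G092290), the HD-Zip gene of barley row type, had 0, 0.0795 and 0.854 CPM at W3.5, against 0, 0 and 0.304 CPM at W2.0, overlapping levels under 1 CPM, and 2.64, 1.78, 3.25 and 2.46 CPM at W5.0. DESeq2 called MADS6 lower, nearly all of its counts coming from W2.0 replicate 3.

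The step in mnd1.a was set against the same step in Bowman through the line-by-stage interaction, the mnd1.a log2 change minus the Bowman log2 change. The comparisons share no library, and both lines change prefix on this step. Of 21132 genes 12 had a higher interaction (0.0568%) and 28 a lower one (0.133%). In Bowman 3006 genes rose and 3204 fell (14.2% and 15.2%, or 29.4% in either direction), from 4 and 3 libraries, and a count of calls is not a measure of the difference between the lines. Of the 40 interaction genes, 39 were called in the Bowman step and 4 in the mnd1.a step. The count was 350 in DESeq2 and 22 in limma-voom, 501 without mnd1.a W3.5 replicate 3, and 10 without mnd1.a W2.0 replicate 3. Of the 40, 10 kept their call in all 13 fits without 1 library of the 4 groups. The 40 include 3 pairs of transcripts with identical counts.

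Photosynthesis genes were among the lower interactions. Of 83 tested, 8 had a lower interaction, beside 0.133% over all genes, and the median log2 change of the 83 on the step was 0.27 in mnd1.a and 1.74 in Bowman. None was called in mnd1.a, and 60 were called higher in Bowman. The 8 include 2 pairs with identical counts. Without mnd1.a W2.0 replicate 3, 5 of the 8, namely a cytochrome b6-f subunit, photosystem II protein W and 3 Rubisco small chains, were not called (adjusted p = 0.0747 to 0.144). Photosystem I subunit N (HORVU2Hr1G019820) had 11.3, 13.8 and 15.2 CPM at W3.5, against 11.4, 7.72 and 15.4 CPM at W2.0 in mnd1.a. It had 19.4, 26.1, 17.3 and 23.5 CPM in Bowman at W3.5, against 4.18, 1.77 and 1.86 CPM in Bowman at W2.0 (log2 -2.84 ± 0.41, adjusted p = 0.00671). Levels overlapped between the stages in mnd1.a and did not in Bowman.

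Further genes with a lower interaction were higher at W3.5 in Bowman. Photosystem II 22 kDa protein (HORVU3Hr1G082730), which dissipates excess light energy, had 13.6, 14.9 and 21.2 CPM at W3.5, against 14.2, 8.58 and 17.7 CPM at W2.0 in mnd1.a and 16.0, 19.9, 20.2 and 24.1 CPM in Bowman at W3.5, against 4.03, 3.88 and 2.996 CPM in Bowman at W2.0 (log2 -2.16 ± 0.33, adjusted p = 0.00744). Its neighbour HORVU3Hr1G082740 has identical counts. Sigma factor A (HORVU7Hr1G069500), which directs plastid transcription, had 5.97, 5.96 and 5.49 CPM at W3.5, against 4.64, 4.602 and 6.26 CPM at W2.0 in mnd1.a and 7.41, 9.04, 11.2 and 7.33 CPM in Bowman at W3.5, against 2.12, 2.79 and 2.20 CPM in Bowman at W2.0 (log2 -1.72 ± 0.25, adjusted p = 0.00671). The calcium sensing receptor (HORVU6Hr1G072740), a thylakoid protein, had 25.6, 23.7 and 25.8 CPM at W3.5, against 23.3, 19.4 and 25.5 CPM at W2.0 in mnd1.a and 24.9, 29.9, 29.8 and 33.5 CPM in Bowman at W3.5, against 11.3, 9.39 and 6.66 CPM in Bowman at W2.0 (log2 -1.56 ± 0.23, adjusted p = 0.00671). Lactation elevated protein 1 (HORVU3Hr1G010290, so annotated) had 20.5, 19.96 and 14.9 CPM at W3.5, against 22.2, 20.1 and 23.5 CPM at W2.0 in mnd1.a and 18.7, 20.6, 30.8 and 26.2 CPM in Bowman at W3.5, against 9.38, 6.81 and 9.65 CPM in Bowman at W2.0 (log2 -1.74 ± 0.25, adjusted p = 0.00671). In all 5 genes the stages overlapped in mnd1.a and did not in Bowman, and the interactions held in all 13 fits.

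MADS5, CONSTANS-LIKE 16 and HY5 were single genes with a lower interaction. MADS5, 1 of 35 MADS-box genes, had 5.94, 19.1, 15.3 and 46.9 CPM in Bowman at W3.5, against 0, 0 and 0.266 CPM in Bowman at W2.0 (log2 -9.63 ± 1.80, adjusted p = 0.0384), a size that rests on near-zero counts in Bowman at W2.0. Without mnd1.a W2.0 replicate 3 the adjusted p was 0.309, and limma-voom gave 0.367. CONSTANS-LIKE 16, 1 of 19 in its list, rose in both lines and had 10.3, 17.1, 12.6 and 21.5 CPM in Bowman at W3.5, against 2.56, 1.63 and 1.598 CPM in Bowman at W2.0 (log2 -1.99 ± 0.39, adjusted p = 0.0384), with an adjusted p of 0.183 without mnd1.a W2.0 replicate 3. The light-response factor HY5 (HORVU6Hr1G037760), named after its values were seen, had 4.98, 3.82 and 2.93 CPM at W3.5, against 6.38, 6.006 and 5.17 CPM at W2.0 in mnd1.a and 3.45, 5.56, 9.48 and 6.83 CPM in Bowman at W3.5, against 1.83, 1.29 and 0.533 CPM in Bowman at W2.0 (log2 -2.97 ± 0.47, adjusted p = 0.00963). It held in all 13 fits. Over the MADS-box list the median change was -0.05 in mnd1.a and 1.56 in Bowman, where 18 of 35 rose, and MADS5 was the 1 member with a called interaction.

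Sulfate assimilation genes were among the higher interactions. Of 24 nitrogen and sulfur genes 4 had a higher interaction, beside 0.0568% over all genes, and all 4 act in sulfate assimilation. Without mnd1.a W2.0 replicate 3, 3 of the 4 were not called (adjusted p = 0.183 for phosphoadenosine phosphosulfate reductase, 0.148 for sulfite reductase HORVU0Hr1G026700 and 0.123 for sulfate adenylyltransferase), and these 3 kept the call in 4, 5 and 7 of the 13 fits. Sulfite reductase HORVU1Hr1G065770 had 133, 155 and 162 CPM at W3.5, against 156, 138 and 122.9 CPM at W2.0 in mnd1.a and 99.9, 74.7, 72.8 and 58.7 CPM in Bowman at W3.5, against 188, 233 and 209.7 CPM in Bowman at W2.0 (log2 1.57 ± 0.22, adjusted p = 0.00671). Phosphoadenosine phosphosulfate reductase (HORVU0Hr1G003890), named after its values were seen, had 49.6, 85.0 and 135 CPM at W3.5, against 53.02, 45.7 and 32.4 CPM at W2.0 in mnd1.a and 32.8, 31.4, 16.8 and 14.8 CPM in Bowman at W3.5, against 50.3, 101 and 114 CPM in Bowman at W2.0 (log2 2.94 ± 0.56, adjusted p = 0.039), and limma-voom did not call it (adjusted p = 0.063). Serine hydroxymethyltransferase 7 (HORVU3Hr1G082070), which links serine and glycine, had 39.2, 43.6 and 41.98 CPM at W3.5, against 41.3, 43.1 and 38.7 CPM at W2.0 in mnd1.a and 28.1, 26.6, 30.3 and 24.9 CPM in Bowman at W3.5, against 44.7, 54.1 and 46.1 CPM in Bowman at W2.0 (log2 0.83 ± 0.12, adjusted p = 0.00719). Aspartate aminotransferase (HORVU5Hr1G067880) had 105, 112 and 104 CPM at W3.5, against 116, 107.9 and 101 CPM at W2.0 in mnd1.a and 81.6, 79.9, 67.6 and 80.7 CPM in Bowman at W3.5, against 123.1, 121 and 119 CPM in Bowman at W2.0 (log2 0.63 ± 0.11, adjusted p = 0.0185). In each of these genes every Bowman library was lower at W3.5 than at W2.0, while the mnd1.a libraries overlapped between the stages.

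An NB-ARC gene and Hfr-2-like protein were single genes with a higher interaction. The NB-ARC gene HORVU0Hr1G015230, 1 of 257 disease resistance genes, rose in mnd1.a and had 30.6, 31.6, 27.4 and 25.4 CPM in Bowman at W3.5, against 28.9, 31.6 and 31.3 CPM in Bowman at W2.0 (log2 0.87 ± 0.14, adjusted p = 0.00812), overlapping levels in Bowman. Hfr-2-like protein (HORVU5Hr1G102530), of a wheat lectin family described for its response to Hessian fly, had 9.96, 4.21 and 3.78 CPM at W3.5, against 5.63, 7.96 and 6.99 CPM at W2.0 in mnd1.a and 1.02, 0.332, 0.862 and 0 CPM in Bowman at W3.5, against 11.2, 24.2 and 8.06 CPM in Bowman at W2.0 (log2 4.36 ± 0.77, adjusted p = 0.0276). Its mnd1.a levels overlapped between the stages. The sulfite reductase, serine hydroxymethyltransferase and NB-ARC interactions held in all 13 fits, and those of Hfr-2-like protein and aspartate aminotransferase were lost without mnd1.a W2.0 replicate 3 (adjusted p = 0.109 and 0.0943).

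**Figure D5:**
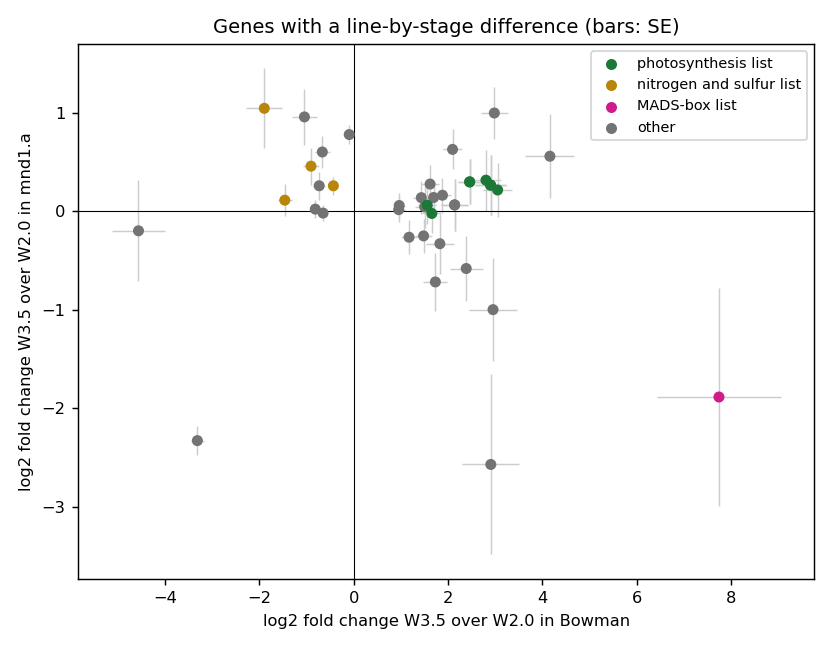
Log2 fold change of W3.5 over W2.0 in mnd1.a (y axis) against that in Bowman (x axis) for the 40 genes with a called line-by-stage interaction; bars are standard errors and colours give the list. Most points lie within 1 of 0 on the mnd1.a axis while 39 of the 40 genes were called in Bowman.

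Values at W5.0 stand beside those at W3.5 for mnd1.a, where both are set against the same W2.0 libraries and W5.0 shares their prefix 1328. Between W5.0 and W2.0, 1829 genes rose and 2205 fell (8.66% and 10.4%). The median of the lignin and secondary wall list was -0.78 for W3.5 over W2.0 and -1.49 for W5.0 over W2.0, where 66 of its 139 genes fell and 0 rose. That of wax, cuticle and lipid-transfer genes was -0.58 for W3.5 and -0.73 for W5.0, and that of primary wall genes was -0.31 for W3.5 and -0.48 for W5.0. The ribosomal-RNA-like median was -2.54 for W3.5 and 0.83 for W5.0. Since both comparisons use the W2.0 libraries, these medians are a description and not independent of each other. Of genes chosen as lower on the step, laccase 17 HORVU3Hr1G086200 had 0.165, 0.926, 1.06 and 0.575 CPM at W5.0, and expansin B4 had 1.48, 0.618, 2.42 and 1.31 CPM. Lipid-transfer protein 3 had 5.44, 3.63, 4.69 and 4.11 CPM, and cell wall invertase 1 had 0.907, 0.618, 0.984 and 0.821 CPM. Some genes chosen as higher on the step were near their W2.0 level again at W5.0. Kinesin-like protein 1 HORVU0Hr1G015810 had 95.3, 77.35, 79.85 and 74.91 CPM there. ORR22 had 9.48, 7.18, 9.46 and 7.39 CPM, and bHLH25 had 8.99, 9.88, 11.35 and 7.80 CPM. Auxin response factor 6 stayed higher, with 5.52, 5.17, 5.98 and 7.15 CPM, as did MADS18. The part of the prefix in these levels was not tested.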

How the data were processed

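Bulk RNA was read in inflorescence tissue of mnd1.a and Bowman barley. The authors deposited 1 table with estimated counts for 1 transcript per gene, headed as raw counts, and the log2 fold changes of mnd1.a over Bowman at each stage. Per the submitters' processing notes BWA 0.7.15, Salmon, limma and GATK were used, without roles or order. A genome build was not given in the sources used here, and coordinates are as in the table, with annotations credited there to a published barley assembly. Of the count values 94.9% are not whole, and they were rounded. The W3.5 count columns are headed W3.0. The authors' deposited log2 fold changes for W3.5 correlated with a refit of these columns across genes (r = 0.912, against 0.240 and 0.463 for W2.0 and W5.0). Of 42 per-sample columns 21 were not used.

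All 21 libraries of 6 groups entered edgeR 4.0.16 (R 4.3.3) with TMM factors of 0.902 to 1.08. filterByExpr (at least 10 counts, total 15) kept 21132 of 24318 genes. The quasi-likelihood F test was used with Benjamini-Hochberg adjustment and a threshold of 0.05, after tests on simulated data. Another 591 transcripts share identical counts with a further one, and 1713 genes have no annotation or position. Genes under near-identical copies are uncertain, since the counting could split their reads. Alternatives were DESeq2 1.42.0, limma-voom (limma 3.58.1), size factors, no filter, identical transcripts collapsed, fewer groups in the fit, prefix as a term, a stricter threshold, and each library left out. Depth was 12552287 to 16851574 counts in the 6 libraries, and counting intervals cover counting error only.

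Members and gene lists were chosen with earlier results of these data known. Of 57 word-pattern lists, 25 had wrong matches excluded, 366 members in all, which emptied 1. Named genes are fixed flowering genes, and per list the 3 called genes with the largest change that have at least 5 CPM in the higher group and no overlap. Added are the 10 annotated called genes with the largest log2 rise and the 10 with the largest fall under the same limits, the 5 called genes with the largest CPM difference each way, and the 5 interaction genes each way with the smallest p. A group without counts was set to a floor of 3 counts over the group.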

Additional observations from a re-analysis of the deposited data

Results flagged for a closer look

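For 12 named genes the step in mnd1.a differed from that in Bowman by the test of the difference itself, with the library values and adjusted p-values given in the report. The interaction log2 value, mnd1.a change minus Bowman change, was positive for 5 of them. It was 4.36 for Hfr-2-like protein HORVU5Hr1G102530, 1.57 for sulfite reductase HORVU1Hr1G065770 and 0.87 for the NB-ARC gene HORVU0Hr1G015230. It was 0.83 for serine hydroxymethyltransferase HORVU3Hr1G082070 and 0.63 for aspartate aminotransferase HORVU5Hr1G067880. The value was negative for the other genes. It was -9.63 for MADS5 HORVU7Hr1G025700, -2.84 for photosystem I subunit N HORVU2Hr1G019820 and -2.16 for photosystem II 22 kDa protein HORVU3Hr1G082730. It was -1.99 for CONSTANS-LIKE 16 HORVU4Hr1G007420, -1.74 for lactation elevated protein HORVU3Hr1G010290, -1.72 for sigma factor A HORVU7Hr1G069500 and -1.56 for the calcium sensing receptor HORVU6Hr1G072740. Both lines change library code prefix on this step.

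In 4 named genes 1 of the 4 mnd1.a libraries at W5.0 lay far from the others. These were MND1 (HORVU7Hr1G113480) with 2.39 CPM, CONSTANS-LIKE 16 (HORVU4Hr1G007420) with 9.73 CPM, HORVU1Hr1G026990 with 12.2 CPM and the NB-ARC gene HORVU0Hr1G015230 with 38.7 CPM. Chance flags about 1 in 20 groups, and the 98 named genes were each looked at in this group. Groups of 3 libraries were not looked at in this way.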

How the results depend on the processing

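The called count of the step W3.5 against W2.0 in mnd1.a, 799 genes, was 151 at an adjusted p under 0.01 and at least 2-fold, 1308 in DESeq2, 1535 with only the 2 groups in the fit, 2686 with only the 3 mnd1.a groups and 8 with line, stage and prefix as additive terms. It was 266 to 632 when 1 library was left out. The interaction count, 40, was 9 at the stricter threshold, 350 in DESeq2, 22 in limma-voom and 10 to 501 with 1 library left out, 501 without mnd1.a W3.5 replicate 3 and 206 without Bowman W3.5 replicate 1. The Bowman count, 6210, was 1258 at the stricter threshold and 4042 to 7179 with 1 library left out. The W5.0 against W2.0 count in mnd1.a, 4034, was 828 at the stricter threshold and 2006 to 3219 with 1 library left out. The cause was not tested.

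Of 82 named genes called on the step, 33 kept the call in all leave-outs, 80 of 81 in DESeq2, 72 in limma-voom, 74 without the filter and 0 with prefix as a term. The prefix term of that last fit cannot be told apart from a line difference particular to W5.0. In that fit the log2 value changed sign for 13 called genes and others. It was 0.511 for HORVU7Hr1G020010, 0.721 for HORVU0Hr1G024170, 0.720 for HORVU7Hr1G030010, 0.438 for HORVU6Hr1G024220, 0.486 for HORVU5Hr1G015600 and 0.466 for HORVU5Hr1G016040. It was 0.818 for HORVU5Hr1G015390, 0.788 for HORVU7Hr1G107130 and 0.754 for HORVU3Hr1G016770, all of these being ribosomal-RNA-like, organelle-encoded or likeTBP transcripts. It was -1.212 for L14-1 HORVU2Hr1G089090, -1.158 for HORVU2Hr1G013950, -0.117 for HORVU5Hr1G044830 and -0.008 for HORVU3Hr1G007830. Among genes not called it was 0.697 for MND1 HORVU7Hr1G113480, 1.643 for MADS34 HORVU5Hr1G095710, 2.671 for MADS5 HORVU7Hr1G025700, 3.143 for MADS6 HORVU6Hr1G066140, 2.89 for TERMINAL FLOWER 1 HORVU4Hr1G078770, -0.388 for HORVU1Hr1G065770, -0.028 for HORVU3Hr1G082070 and -0.255 for HORVU2Hr1G019820. Leave-outs reversed 5 uncalled values, with ranges over the leave-outs of -2.331 to 0.67 for MADS34, -1.464 to 5.361 for VRS1 HORVU2Hr1G092290, -0.019 to 0.065 for HORVU3Hr1G082070, -0.065 to 0.036 for HORVU5Hr1G067880 and -0.776 to 0.046 for HORVU5Hr1G102530.

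No paired analysis was possible because the labels give no replicate numbers shared between the groups. Prefix and stage cannot be told apart within the step, and genes under 5 CPM rest on few counts at this depth.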
